A study of Ipomoea batatas with 12 samples.

Results

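The MBP3 gene pair comprised g4107 and g4109, the 2 genes described as MBP3 on linkage group 1 of sweetpotato (Ipomoea batatas) among 45142 genes in the expression table. The members were chosen by gene identifier and description, and both passed the filter used for testing, a mean of at least 0.5 FPKM over all libraries, as did 28065 genes in total. FPKM counts sequenced fragments scaled by the length of the transcript and by the depth of the library. It makes no correction for shifts in which genes take up the counts of a library, so FPKM comparisons between libraries are approximate. The factors that edgeR fitted for such shifts ranged from 0.820 (MBP3-OE library 2 at 4 months) to 1.13 (MBP3-OE library 3 at 1 month). RNA-seq was carried out on roots of cultivar Taizhong 6 in 12 libraries. The MBP3 overexpression roots (MBP3-OE) gave 3 libraries, numbered 2, 3 and 8, at each of 20 days, 1 month and 4 months. The wild type (WT) gave 1 library at each of the same ages. The age labels of the WT libraries are 20 days, 1 month and 4 months, whereas the series text gives stages of 20, 60 and 120 days after planting, and the labelled ages are used here. The study describes the WT roots as pools of plants. The promoter that drives the introduced gene, and whether the numbers 2, 3 and 8 are transgenic lines or plants, are not given in the sources used here, so p-values measure only the spread between these libraries.

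MADS-box genes encode transcription factors that bind DNA through the conserved MADS domain and act as dimers or larger complexes. They are best known for specifying floral organs and flowering time, and in Arabidopsis several members also act in root growth and lateral root development. In sweetpotato, the tuberous root forms from a fibrous root by thickening and by storing starch and the storage protein sporamin, and MADS-box transcripts are known from these roots. The table describes each gene as MBP3 without spelling the name out. For g4109 it lists 12 gene ontology terms, among them DNA-binding transcription factor activity, flower development and long-day photoperiodism. It lists 0 terms for g4107.

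In the sweetpotato genome that the authors took from the Ipomoea Genome Hub (the sources used here name no build), g4107 lay on linkage group 1 at 29559499 to 29562210 on the minus strand, a span of 2712 bp. The gene g4109 lay at 29574715 to 29577770 on the plus strand, a span of 3056 bp. A gap of 12504 bp separated them, and 1 gene with no description, g4108, lay in it. By their strands, the pair was annotated with the 5′ ends facing each other across this gap. The positions of exons and untranslated regions were not analysed here. The library kit does not mark the strand, and how reads matching both genes were assigned is not stated, so the split between the pair is uncertain, and transcripts of the introduced gene cannot be told apart from those of the native genes.

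Both genes were well expressed in roots. Over the 12 libraries g4107 averaged 60.5 FPKM, above 95.3% of the genes tested, and g4109 averaged 31.5 FPKM, above 89.2%. Among 86 genes described as MADS-box or MBP, the pair included, g4107 ranked 1 and g4109 ranked 3 by mean FPKM. Within single libraries the rank of g4107 in this family ranged from 1 to 3 and that of g4109 from 2 to 11. Together the 2 genes took 0.00685% to 0.0278% of all counts in the MBP3-OE libraries and 0.00327% to 0.0182% in the WT libraries.

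At 20 days, g4107 had 75.0, 78.4 and 67.3 FPKM in MBP3-OE libraries 2, 3 and 8, against 15.3 FPKM in the WT library. For g4109 the levels were 40.8, 40.3 and 36.0 FPKM in MBP3-OE, against 7.38 FPKM in WT. All 3 MBP3-OE libraries lay above the WT library for both genes, and they lay close to each other. The share of all genes for which this also held was not counted. The MBP3-OE mean was 4.81 times the WT level for g4107 (4.40 to 5.12 times by library) and 5.28 times for g4109 (4.87 to 5.52 times).

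At 1 month, g4107 had 29.7, 58.3 and 51.3 FPKM in the MBP3-OE libraries, against 23.2 FPKM in WT. The level of g4109 was 16.6, 29.7 and 26.3 FPKM in MBP3-OE, against 10.5 FPKM in WT. The MBP3-OE libraries again lay above the 1 WT library, and library 2 was the lowest of them for both genes. Here too the share of all genes that lay this way was not counted. The mean was 2.0 times the WT level for g4107 (1.28 to 2.51 times) and 2.30 times for g4109 (1.58 to 2.83 times).

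At 4 months, g4107 had 55.8, 67.5 and 121 FPKM in the MBP3-OE libraries, against 83.2 FPKM in WT. The level of g4109 was 27.9, 35.8 and 65.9 FPKM in MBP3-OE, against 40.9 FPKM in WT. Here the WT value lay inside the MBP3-OE range for both genes, with library 8 above it and libraries 2 and 3 below it. The mean of MBP3-OE was 0.980 times the WT level for g4107 (0.671 to 1.46 times) and 1.06 times for g4109 (0.683 to 1.61 times). At every age the 3 folds share 1 WT library as their denominator.

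**Figure D1:**
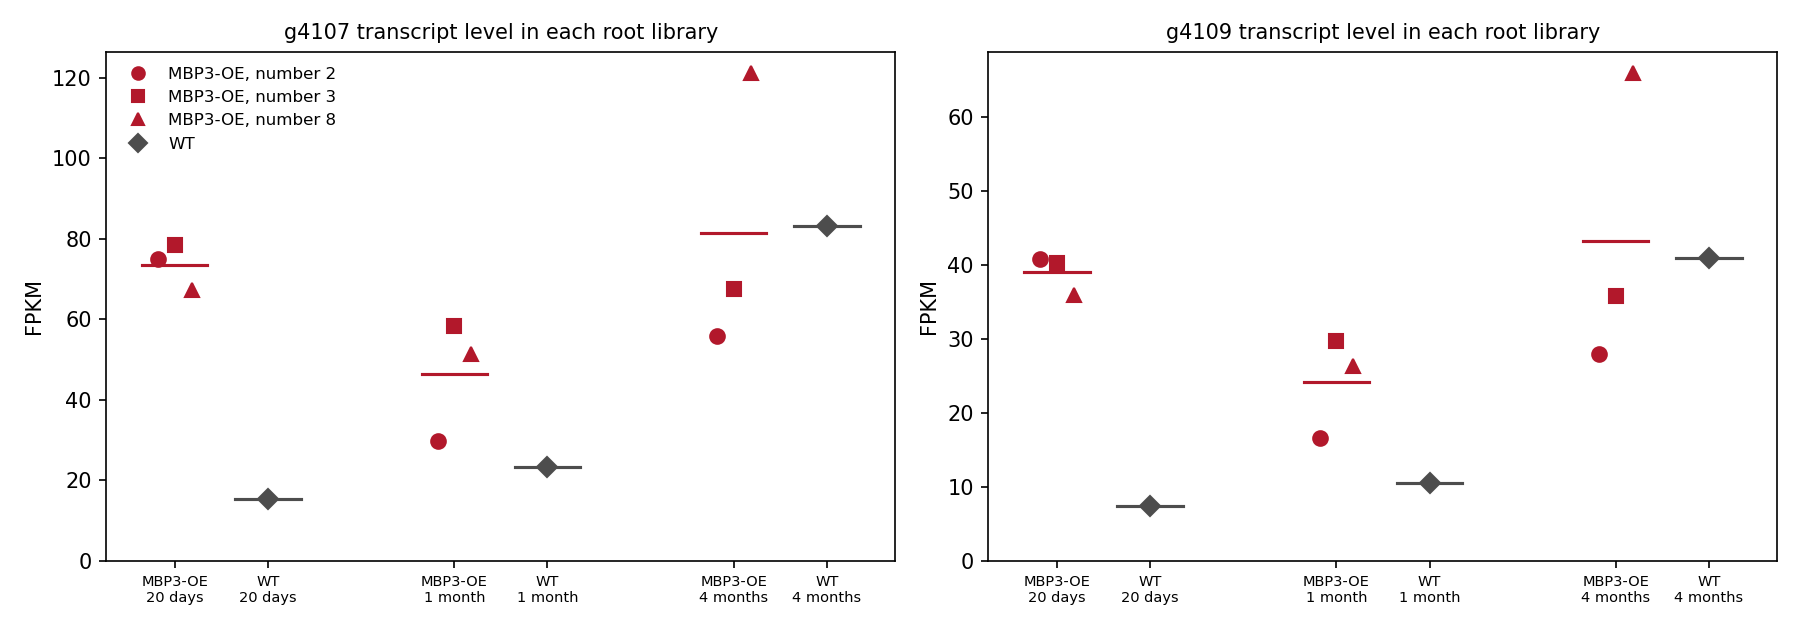
FPKM (vertical axis) of g4107 (left) and g4109 (right) in each root library by genotype and age, with 1 point per library and a horizontal line at the group mean. At 20 days the MBP3-OE libraries sit at 67.3 to 78.4 FPKM for g4107, above the WT library at 15.3 FPKM, and at 4 months the WT library at 83.2 FPKM sits between the MBP3-OE libraries.

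The comparison of MBP3-OE with WT asks how far the targeted transcripts exceeded those of the wild type. It was made on the deposited counts with edgeR's quasi-likelihood test in 1 fit of all 12 libraries, in which each WT group of 1 library borrows the spread between the MBP3-OE libraries. To be called, a gene needed an adjusted p (Benjamini-Hochberg, over all 28065 genes) under 0.05 together with a log2 fold change of at least 1 in size. Averaged over ages, the log2 fold change was 1.07 for g4107 (SE 0.28, adjusted p = 0.122) and 1.21 for g4109 (SE 0.29, adjusted p = 0.103) by edgeR. Neither gene was called, and 0.164% of all genes tested were (46 genes, or 2 to 196 in fits that each left out 1 library). The unadjusted p was 0.00464 for g4107 and 0.00229 for g4109 in the same edgeR fit. DESeq2 called both genes (log2 fold change 1.05, adjusted p = 0.00892, and 1.20, adjusted p = 0.0022), beside 3.53% of all genes. Of all genes, 94.0% had a lower log2 fold change than g4107 and 95.1% a lower one than g4109. Without the WT library at 20 days the averaged log2 fold change was 0.49 for g4107 and 0.65 for g4109, and without the WT library at 4 months it was 1.57 and 1.74.

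At 20 days alone, the log2 fold change of MBP3-OE over WT was 2.16 for g4107 (SE 0.53, edgeR adjusted p = 0.242) and 2.29 for g4109 (SE 0.54, edgeR adjusted p = 0.233). edgeR called neither, and in this comparison it called 0 of all genes tested (0%), with 2848 at an unadjusted p under 0.05 that included both genes (0.00287 and 0.00213). DESeq2 called both genes at 20 days (log2 fold change 2.14, adjusted p = 0.00329, and 2.28, adjusted p = 0.00157) and 504 genes in all. At 1 month the log2 fold change was 0.99 for g4107 (SE 0.49, edgeR adjusted p = 0.53) and 1.19 for g4109 (SE 0.50, edgeR adjusted p = 0.466), and again 0 of all genes were called (0%), with 2892 at an unadjusted p under 0.05 and 607 called by DESeq2. At 4 months the difference was within the spread between libraries for both genes. Its 95% interval ran from -0.99 to 1.09 on the log2 scale for g4107 and from -0.89 to 1.21 for g4109, and 0.346% of all genes were called (97 genes, or 0 without MBP3-OE library 8 at 20 days and up to 148 without library 3 at 4 months). Without MBP3-OE library 8 at 4 months the direction turned, to -0.40 for g4107 and -0.34 for g4109.

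With age in WT, both genes rose: g4107 had 83.2 FPKM at 4 months, against 15.3 FPKM at 20 days, and g4109 had 40.9 FPKM at 4 months, against 7.38 FPKM at 20 days. The log2 fold change by edgeR was 2.55 for g4107 (SE 0.60, adjusted p = 0.0195) and 2.58 for g4109 (SE 0.60, adjusted p = 0.019). Both were called as higher, as were 11.5% of all genes tested. Each WT age is 1 library, so this test rests on the spread between MBP3-OE libraries. The adjusted p of g4107 stayed between 0.000462 and 0.0376 under the alternatives run, and that of g4109 between 0.000437 and 0.037. None of these alternatives left out a WT library, so they do not show how far the result depends on either one.

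By the values, most of the difference in WT lay between 1 month and 4 months. At 1 month the WT library had 23.2 FPKM of g4107 and 10.5 FPKM of g4109, and the log2 fold change over 20 days was 0.42 and 0.32 (edgeR adjusted p = 0.852 and 0.895), neither called, beside 0.178% of all genes. At 4 months over 1 month the log2 fold change in WT was 2.13 for g4107 (SE 0.59, adjusted p = 0.0672) and 2.25 for g4109 (SE 0.59, adjusted p = 0.0598) by edgeR, so neither was called, beside 5.12% of all genes. DESeq2 called both here (log2 fold change 2.06 and 2.18), beside 17.3% of all genes. So did edgeR without MBP3-OE library 2 at 4 months (adjusted p = 0.0452 and 0.036, beside 3220 genes called in all). The same held without library 8 at 4 months (0.03 and 0.0226, beside 1684 genes called in all).

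In MBP3-OE the mean of g4107 was 73.6 ± 5.67 FPKM at 20 days, 46.5 ± 14.9 FPKM at 1 month and 81.5 ± 34.9 FPKM at 4 months (SD, n = 3 each). The mean of g4109 was 39.0 ± 2.65, 24.2 ± 6.80 and 43.2 ± 20.1 FPKM at the same ages. The mean at 1 month was thus the lowest of the 3 ages for both genes. The log2 fold change of 1 month over 20 days was -0.75 for g4107 and -0.78 for g4109 (SE 0.33 each, edgeR adjusted p = 0.159 and 0.15), neither called, beside 9.2% of all genes.

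At 4 months over 1 month, both genes rose in MBP3-OE, by a log2 fold change of 1.20 for g4107 (SE 0.33, edgeR adjusted p = 0.0319) and 1.22 for g4109 (SE 0.33, edgeR adjusted p = 0.0303). They were called as higher together with 7.48% of all genes. The call did not hold in 7 of 9 fits that each left out 1 MBP3-OE library, which were all but those without library 2 or library 3 at 4 months. In these 9 fits the log2 fold change ran from 0.73 to 1.37 for g4107 and from 0.72 to 1.42 for g4109, lowest without library 8 at 4 months in both. With library sizes set by total count alone it was 0.85 for g4107 and 0.87 for g4109 (edgeR adjusted p = 0.087 and 0.0799), and under this scaling the median of all genes shifted by -0.33. At 4 months over 20 days the log2 fold change was 0.44 for both genes (SE 0.33 each, edgeR adjusted p = 0.287 each), neither called, beside 35.2% of all genes, and it turned to -0.038 for g4107 and -0.077 for g4109 without library 8 at 4 months.

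The difference between genotypes in the change with age was tested directly. From 20 days to 4 months, the log2 change in MBP3-OE minus that in WT was -2.11 for g4107 (SE 0.66, edgeR adjusted p = 0.305, unadjusted 0.0114) and -2.13 for g4109 (SE 0.66, edgeR adjusted p = 0.303, unadjusted 0.0109). Neither was called, and edgeR called 0 of all genes tested (0%), with 3086 at an unadjusted p under 0.05. DESeq2 called 746 genes for this difference and neither member, with adjusted p no lower than 0.0817 for g4107 and 0.0793 for g4109 under any alternative. From 20 days to 1 month the difference was -1.17 and -1.10 (edgeR adjusted p = 0.887 and 0.904), with 0 of all genes called (0%), 1730 at an unadjusted p under 0.05 and 183 called by DESeq2, and from 1 month to 4 months it was -0.94 and -1.03 (edgeR adjusted p = 0.652 and 0.616, 0.00356% called).

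**Figure D2:**
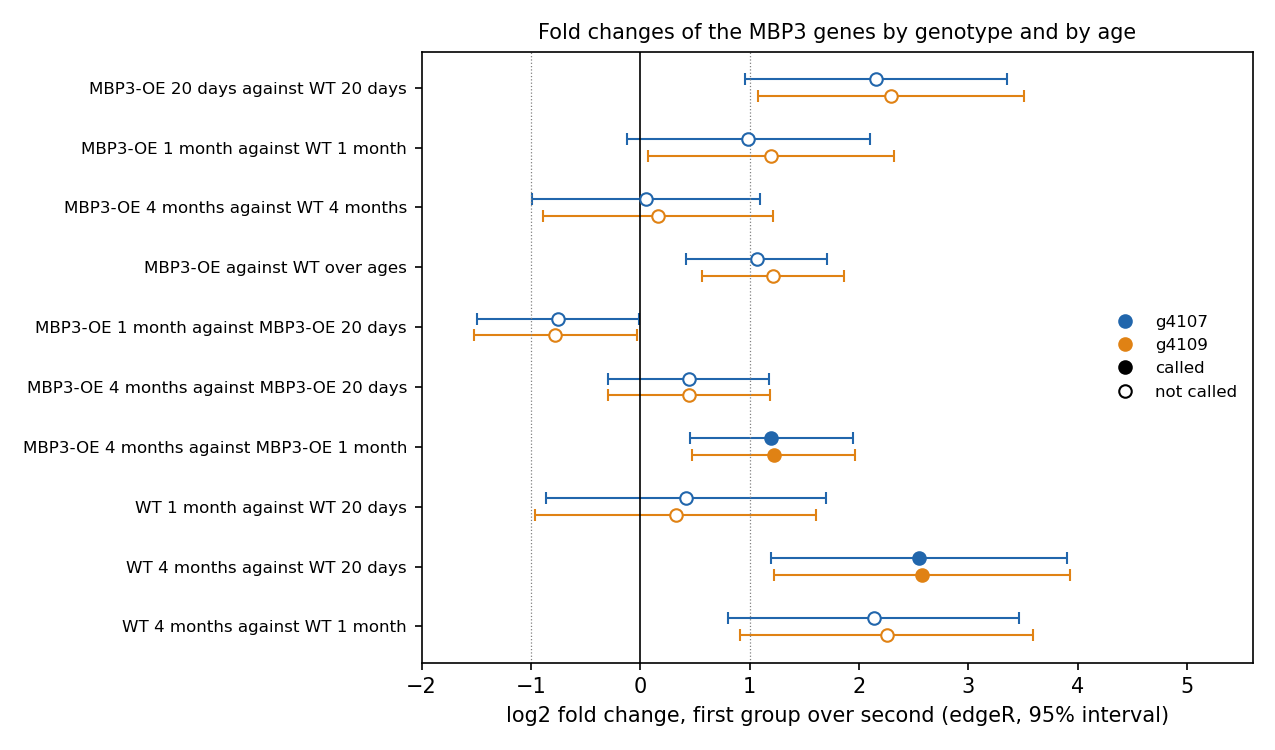
log2 fold change of the first over the second group named on each row (horizontal axis) for g4107 and g4109, with 95% intervals from the edgeR fit, filled where called. Both genes are called for WT at 4 months over 20 days (2.55 and 2.58) and for MBP3-OE at 4 months over 1 month (1.20 and 1.22), and the interval of MBP3-OE over WT at 4 months spans 0.

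Ordered by mean FPKM from low to high, the groups for g4107 were WT at 20 days (15.3), WT at 1 month (23.2), MBP3-OE at 1 month (46.5), MBP3-OE at 20 days (73.6), MBP3-OE at 4 months (81.5) and WT at 4 months (83.2). For g4109 the order was the same except that MBP3-OE at 4 months (43.2) stood above WT at 4 months (40.9). No 2 neighbours in either order were called as different. Of the 15 pairs of groups, 4 were called for each gene. Besides the 2 rises with age, these were MBP3-OE at 4 months over WT at 20 days (log2 fold change 2.60 and 2.74, beside 16.3% of all genes called as higher) and MBP3-OE at 4 months over WT at 1 month (2.19 and 2.41, beside 9.37%). The other 4 pairs that crossed genotype and age were called for neither gene. All genes called in them made up 10.5% for MBP3-OE at 1 month over WT at 20 days, 0.0748% for MBP3-OE at 20 days over WT at 1 month, 23.6% for MBP3-OE at 20 days over WT at 4 months and 2.65% for MBP3-OE at 1 month over WT at 4 months.

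The spread between MBP3-OE libraries was larger at the later ages for both genes, as it was for the median gene. The coefficient of variation was 7.71% for g4107 and 6.78% for g4109 at 20 days, where the median gene had 15.1%. It was 32.1% and 28.1% at 1 month (median gene 23.2%) and 42.8% and 46.4% at 4 months (median gene 29.7%). The biological coefficient of variation that edgeR fitted was 0.302 for g4107 and 0.303 for g4109, beside a median of 0.300 over all genes.

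The levels of the pair followed each other closely across the libraries. Pearson's r of log2(FPKM + 1) between them was 0.997 over the 12 libraries, which share genotypes and ages, and 0.995 over the 9 MBP3-OE libraries. How reads matching both genes were assigned is not stated, and its part in this correlation was not tested. Each was the most similar of 28064 genes to the other. The next was g4618, a hypothetical protein gene on linkage group 2, with r of 0.923 to g4107 and 0.919 to g4109. Its level ran from 2.60 to 5.64 FPKM in MBP3-OE libraries and from 2.03 to 4.74 FPKM in WT. It was followed for g4107 by g12837, another hypothetical protein gene (0.903), g10054, described as a UDP-galactose/UDP-glucose transporter (0.890), and g58351, described as a dual specificity protein phosphatase (0.875). For g4109 the same transporter gene g10054 (0.90), g12837 (0.889) and g17619, which has no description (0.886), came next. Within the MBP3-OE libraries alone, r with g4107 was 0.578 for g10054, 0.652 for g58351 and 0.919 for g12837.

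The share of g4107 in the counts of the pair differed between genotypes by a small margin. At 20 days it was 58.1%, 59.4% and 58.5% in MBP3-OE libraries 2, 3 and 8, against 60.9% in WT. At 1 month it was 57.4%, 59.7% and 59.5% in MBP3-OE, against 62.5% in WT. At 4 months it was 60.1%, 58.7% and 58.1% in MBP3-OE, against 60.5% in WT. At each age the WT library was thus above all 3 MBP3-OE libraries.

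Over all ages this share was 58.8 ± 0.89% in MBP3-OE (SD, n = 9) and 61.3 ± 1.03% in WT (SD, n = 3). The difference averaged over ages was -2.47 percentage points. An exact two-sided permutation test of which library of an age is WT gave p = 0.0156, the smallest that its 64 assignments allow. Adjusted over the 3 planned tests of this kind, which include those of implied length below, it was 0.0469. The same test of the FPKM share and of log2 FPKM was not counted in this family, so the adjusted value depends on which tests are counted. The 95% Wilson interval of a single library's share, which covers counting error only, was 58.3% to 63.5% in the WT library at 20 days, from 1385 counts of the pair, and overlapped those of the 3 MBP3-OE libraries of that age. The WT interval also overlapped those of libraries 3 and 8 at 1 month, but not that of library 2. At 4 months it overlapped those of libraries 2 and 3, but not that of library 8. In FPKM, g4107 stood at 1.79 to 2.0 times g4109 in MBP3-OE and at 2.03 to 2.21 times in WT.

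**Figure D3:**
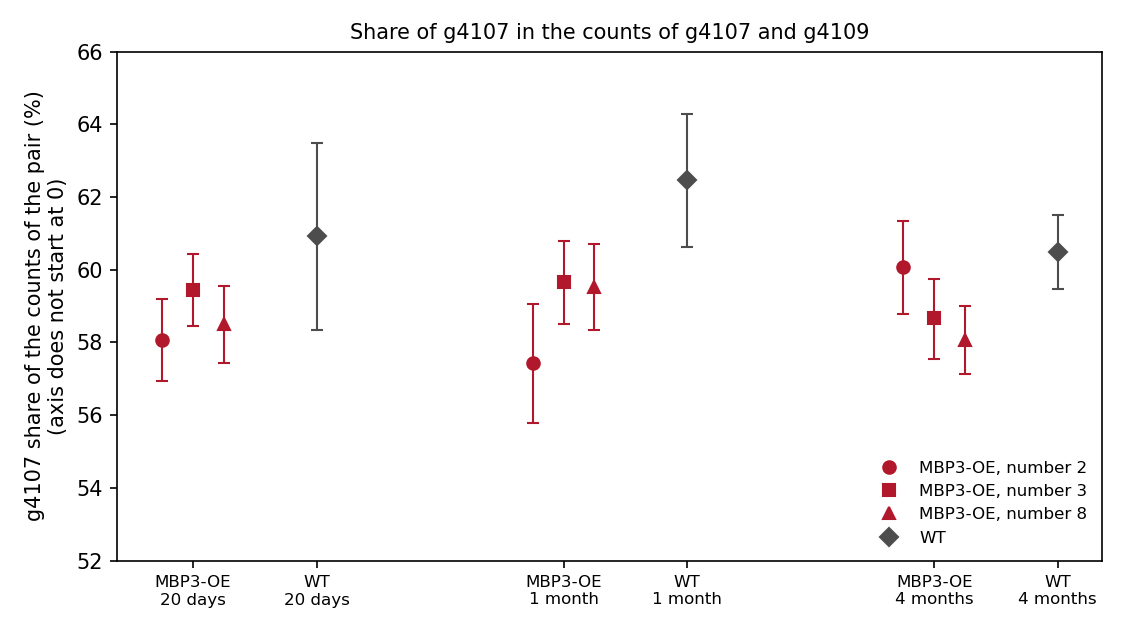
Share of g4107 in the summed counts of g4107 and g4109 (vertical axis, %, not starting at 0) by genotype and age, with 1 point per library and 95% Wilson intervals. The 9 MBP3-OE libraries lie between 57.4% and 60.1% and the 3 WT libraries between 60.5% and 62.5%.

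The transcript length implied by counts, FPKM and total counts was 1292 to 1344 bp for g4107 and 1716 to 1785 bp for g4109 across the libraries. It was 1316 ± 17.6 bp in MBP3-OE (SD, n = 9) and 1308 ± 11.3 bp in WT (SD, n = 3) for g4107, and the exact permutation test gave p = 0.3125 for the difference of 8.34 bp. For g4109 it was 1748 ± 23.5 bp in MBP3-OE and 1737 ± 14.7 bp in WT, with p = 0.328 by the same exact permutation test. After the shift that all genes of a library shared was taken out, the deviations were within -0.020% to 0.030% for g4107 and -0.018% to 0.064% for g4109. Counts and FPKM of the pair therefore carried the same information up to a factor per library. Both tests of implied length thus compared that factor and say nothing on the transcripts of the pair.

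The other MADS-box genes were taken by description, without the pair. Of 72 in the table, 27 passed the filter. Averaged over ages, 23 of these had a positive log2 fold change of MBP3-OE over WT, with a median of 1.12, beside a median of 0.057 over all genes tested. edgeR called 0 of them, with 15 of 27 at an unadjusted p under 0.05, beside 16.2% of all genes. DESeq2 called 10, beside 3.53% of all genes, and limma called 2 on log2(FPKM + 1) and 1 on log2(FPKM + 0.1), beside 0.399% and 0.192%. Taken age by age, the median of the 27 genes was 0.80 for the 20-day roots, 1.16 for the 1-month roots and 0.39 for the 4-month roots.

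The 5 MADS-box genes with the highest mean levels outside the pair differed in how they behaved, and 1 of them, g38619 (mean 34.6 FPKM), stood above g4109. The gene g38619, described as a MADS-box protein, had 12.6, 15 and 14.7 FPKM in MBP3-OE at 20 days, against 7.53 FPKM in WT, and 105, 38.8 and 59.9 FPKM in MBP3-OE at 4 months, against 13.2 FPKM in WT. Its log2 fold change over ages was 1.49 (SE 0.32, edgeR adjusted p = 0.0846), and unlike the pair it lay above WT in all 3 libraries at 4 months too. The gene g1670, described as AGL21, which in Arabidopsis acts in lateral root development, had 5.32, 6.85 and 4.21 FPKM in MBP3-OE at 20 days, against 1.57 FPKM in WT. At 4 months g1670 had 14.8, 19.1 and 24.5 FPKM in MBP3-OE, against 19.6 FPKM in WT, so that here, as for the pair, WT lay inside the MBP3-OE range. Its log2 fold change over ages was 1.46 (SE 0.27, edgeR adjusted p = 0.0708). The gene g57641, a MADS-box protein gene, had 0.83 (SE 0.28, edgeR adjusted p = 0.192), and g34250, described as similar to SVP, a repressor of flowering in Arabidopsis, had 0.52 (SE 0.21, edgeR adjusted p = 0.256). The gene g60235, a MADS-box transcription factor gene, had a log2 fold change of 0.0093 (SE 0.13).

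**Figure D4:**
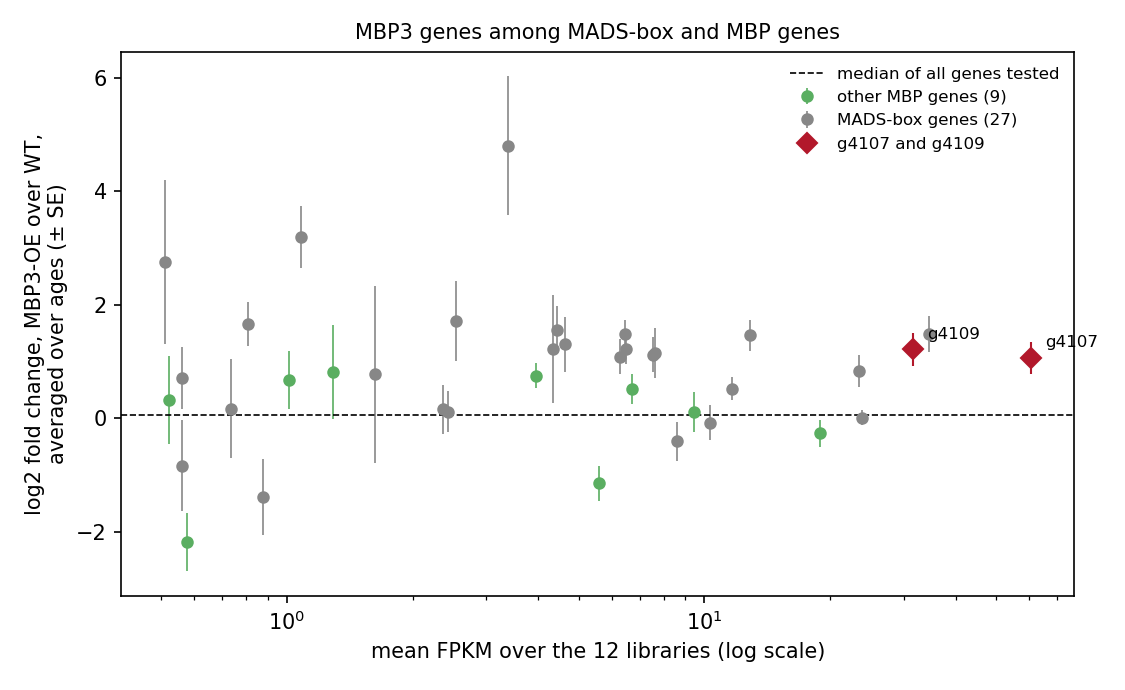
log2 fold change of MBP3-OE over WT averaged over ages (vertical axis, ± SE from edgeR) against mean FPKM on a log scale (horizontal axis) for the pair, the 27 MADS-box and the 9 other MBP genes tested, with a dashed line at the median of all genes. The pair lies at 1.07 (g4107, the rightmost point) and 1.21, and the median of the MADS-box genes is 1.12.

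A minority of the MADS-box genes tested were called as higher with age in each genotype. At 4 months over 20 days, 13 of 27 rose and 1 fell in MBP3-OE, beside 17.5% of all genes called as higher and 17.8% as lower. In WT 6 of 27 rose and 0 fell by edgeR, with 15 at an unadjusted p under 0.05 (37.6% of all genes), beside 11.5% of all genes called as higher and 9.15% as lower. The AGL21 gene g1670 rose in both, by a log2 fold change of 2.11 in MBP3-OE (SE 0.32) and 3.74 in WT (SE 0.59), and so did g1669, a MADS-box transcription factor 23-like gene (1.45, SE 0.27, and 3.36, SE 0.53). In MBP3-OE g38619 rose by 2.59 (SE 0.38) and g57641 by 1.80 (SE 0.34), while in WT their values were 0.92 (SE 0.62) and 0.69 (SE 0.57), neither called.

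Besides the pair, 12 genes carried an MBP name, and 9 passed the filter. Averaged over ages their median log2 fold change of MBP3-OE over WT was 0.32, beside 0.057 over all genes. edgeR called 0, with 3 of 9 at an unadjusted p under 0.05 (16.2% of all genes), and DESeq2 called 1 (3.53% of all genes). At 4 months over 20 days, 1 rose and 5 fell in MBP3-OE, beside 17.5% of all genes higher and 17.8% lower. In WT 0 rose and 3 fell, beside 11.5% and 9.15%. The 3 that fell in WT were the genes described as MBP4. One of them, g31995, had 0.512, 1.98 and 0.723 FPKM in MBP3-OE at 4 months, against 12, 15.3 and 11.4 FPKM at 20 days, a log2 fold change of -3.36 (SE 0.46), and in WT it was -4.60 (SE 0.86). The MBP2 gene g42005, which has the same 12 gene ontology terms as g4109, showed 17.6 to 19.2 FPKM in MBP3-OE at 20 days, against 19.9 FPKM in WT, and its log2 fold change over ages was -0.26 (SE 0.23).

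The genes within 200 kb on either side of the pair were examined to see whether the difference at 20 days extended along the linkage group. Of 42 neighbours, 19 passed the filter. All of these except g4108 and g4125 lay on the side of g4107. Beyond g4109 only g4125 was tested, 165 kb from the start of g4107, so the medians describe mostly the side of g4107. The median log2 fold change of MBP3-OE over WT of the 19 neighbours was -0.23 in the 20-day roots, against 2.16 and 2.29 for the pair. In the 1-month roots the neighbours had a median of 0.059, against 0.99 and 1.19 for the pair, and in the 4-month roots -0.22, against 0.050 and 0.16. Averaged over ages edgeR called 0 of them, with 3 of 19 at an unadjusted p under 0.05, a share near the 16.2% of all genes. DESeq2 and limma also called 0, where DESeq2 called 3.53% of all genes. The gene between the pair, g4108, stayed at 0.271 to 1.70 FPKM in MBP3-OE libraries and 0.422 to 0.596 FPKM in WT. On the other side of g4107, g4106, described as squamosa promoter-binding-like protein 3, a flowering regulator in Arabidopsis, had 11.3, 10.9 and 11.6 FPKM in MBP3-OE at 20 days, against 6.71 FPKM in WT (log2 fold change 0.64, SE 0.38). The nearest gene listed after g4109, g4112, was at or near 0 in all libraries and did not pass the filter.

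A single neighbour was called at 4 months, and it is named here after its values were seen. The gene g4100, described as a p24 delta 3-like protein, a family that carries cargo between the endoplasmic reticulum and the Golgi apparatus, had 12, 11.6 and 12.3 FPKM in MBP3-OE at 4 months, against 33.7 FPKM in WT. It fell by 1.42 on the log2 scale (SE 0.20, edgeR adjusted p = 0.0366), beside 0.242% of all genes called as lower, and the call was lost in 7 of 9 fits that each left out 1 MBP3-OE library.

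**Figure D5:**
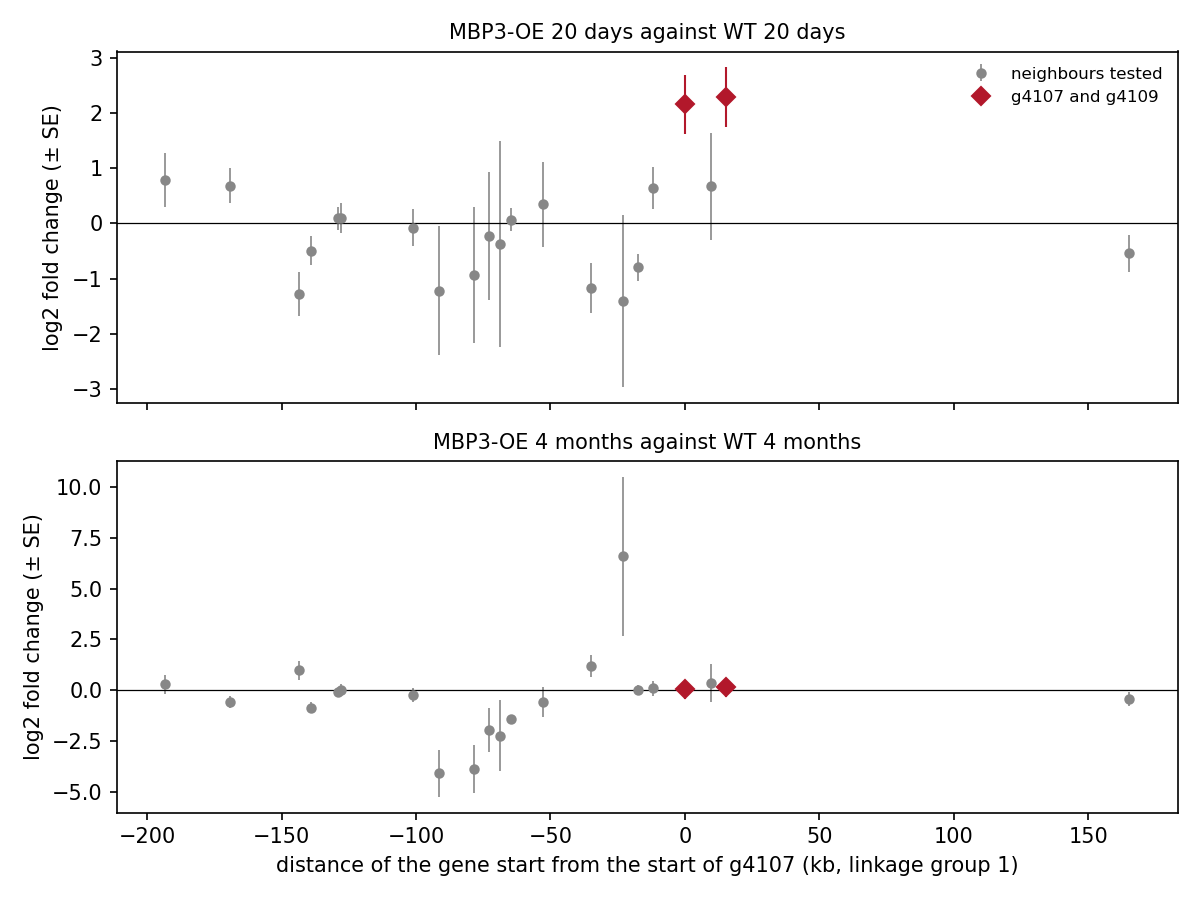
log2 fold change of MBP3-OE over WT (vertical axes, ± SE from edgeR) at 20 days (top) and 4 months (bottom) for the pair and the 19 neighbours tested, against the distance of each gene's start from that of g4107 (horizontal axis, kb). At 20 days the pair at 2.16 and 2.29 stands above the neighbours, whose median is -0.23, and at 4 months it is near 0.

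Total counts ranged from 39424503 to 58486728 per library, and the counts of g4107 from 2024 to 6356 in MBP3-OE libraries and from 844 to 5270 in WT libraries. Summed markers of other cell and tissue types moved with genotype and age. The 49 storage root genes (sporamin and starch synthesis) summed to 541 to 1269 FPKM in MBP3-OE at 20 days, against 227 FPKM in WT. They summed to 3464 to 13834 FPKM in MBP3-OE at 1 month, against 2339 FPKM in WT, and to 67074 to 137447 FPKM in MBP3-OE at 4 months, against 91895 FPKM in WT. The 19 green tissue genes (chlorophyll a-b binding proteins and the small subunit of Rubisco) summed to 67.5 to 157 FPKM in MBP3-OE at 20 days, against 58.7 FPKM in WT. They summed to 209 to 901 FPKM in MBP3-OE at 1 month, against 149 FPKM in WT, and to 3651 to 7456 FPKM in MBP3-OE at 4 months, against 448 FPKM in WT. Of these 19 genes, 18 or 19 were above 0 in every library. The 57 lignifying xylem genes (laccases, cinnamyl alcohol dehydrogenases and xylem cysteine proteases) summed to 1522 to 1709 FPKM in MBP3-OE at 20 days, against 1849 FPKM in WT. They summed to 640 to 772 FPKM in MBP3-OE at 1 month, against 1362 FPKM in WT, and to 157 to 373 FPKM in MBP3-OE at 4 months, against 223 FPKM in WT. A few abundant genes weighed heavily in this sum. The cinnamyl alcohol dehydrogenase gene g29790 had 122 to 178 FPKM in MBP3-OE at 1 month, against 424 FPKM in WT, and g29793, another of these, had 36.9 to 78.3 FPKM, against 360 FPKM. Gene by gene, the log2 fold change of MBP3-OE over WT was positive for 26 of the 38 xylem genes tested at 20 days (median 0.34). At 1 month it was positive for 22 (median 0.15), so the list as a whole did not follow its lower sum. The log2 fold change was positive for 19 of 30 storage root genes at 20 days (median 0.23) and 28 at 1 month (median 1.89). For green tissue genes it was positive for 17 of 18 at 20 days (median 1.81) and 18 at 1 month (median 2.86). The median over all genes tested was 0.030 at 20 days and 0.081 at 1 month, and the share of all genes above 0 was not counted. edgeR called 0 genes of these lists at 20 days or 1 month, where it called 0 of all genes tested. At 4 months the log2 fold change was positive for 18 of 18 green tissue genes (median 3.83). It was positive there for 21 of 30 storage root genes (median 0.23) and 22 of 38 xylem genes (median 0.19). The median over all genes tested was 0.040 at 4 months, and edgeR called 0 genes of these lists, beside 0.346% of all genes. The part of these markers in the differences of the pair was not tested. In whole roots, more cells that express a gene and more of its RNA per cell cannot be told apart.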

How the data were processed

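RNA of sweetpotato roots was extracted with Trizol and sequenced on an Illumina instrument from TruSeq libraries. Per the submitters' processing notes, the tools were cutadapt 1.9, HISAT2 2.0.4 and StringTie 1.3.4d, and also DESeq2 and edgeR. The authors deposited 1 table with an FPKM value and a count per gene and library. How the deposited counts were made is not given in the sources used here. Columns that match no sample numbered 0, and 0 rows lacked a gene identifier.

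The rule for the members uses only gene identifiers and descriptions, but members and lists were chosen with earlier results of these data known. The genes named are g4107 and g4109, the 5 genes most similar to each, the genes next to the pair, the 5 MADS-box genes with the highest mean FPKM, the MADS-box genes called (none) and the top markers, which are given here mostly as sums. The genes that share all gene ontology terms with g4109, g31995 and g4100 were added after their values were seen. The list of other MBP genes was also taken from the table after it was opened.

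Genes averaging 0.5 FPKM or more were fitted in edgeR 4.0.16 (R 4.3.3) with TMM library sizes and 6 group means. The SE of an edgeR log2 fold change was derived as its absolute value over the square root of the F statistic. Intervals are at the 95% level, from this SE and the t distribution. The fit was tested on simulated data. Shares and implied lengths were compared by exact permutation within age (SciPy 1.17.1 for Wilson intervals). Likeness was Pearson's r of log2(FPKM + 1). Alternatives used DESeq2 1.42.0, limma 3.58.1, other scalings, filters and pseudocounts, and left out each library in turn.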

Additional observations from a re-analysis of the deposited data

How the results depend on the processing

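Of 574 alternative values computed, 519 kept their direction and their side of the threshold, 12 passed the threshold that the main value missed, 20 missed one it had passed, 14 counts moved by over 1.5 times and 9 changed sign. Most that changed sign were for MBP3-OE over WT at 4 months, whose value is near 0: -0.0152 for g4107 with library sizes by total count, -0.11 for g4107 with limma under both pseudocounts, -0.0152 and -0.0174 for g4109 with limma under each, and -0.40 and -0.34 without library 8 at 4 months. The others were 4 months over 20 days in MBP3-OE without that library, -0.0381 for g4107 and -0.0775 for g4109.

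DESeq2 called both genes averaged over ages (1.05 and 1.20), at 20 days (2.14 and 2.28) and in WT at 4 months over 1 month (2.06 and 2.18). Of all genes it called 3.53%, 1.80% and 17.3% in these comparisons. It called 992 genes averaged over ages, where edgeR called 46 and, without 1 library, between 2 and 196, and 1085 at 4 months, where edgeR called 97 and, without 1 library, between 0 and 148. Other edgeR counts over all genes also moved without 1 library: 50 to between 0 and 239 for WT at 1 month over 20 days, 1436 to between 407 and 3220 for WT at 4 months over 1 month, 2581 to between 895 and 3501 for MBP3-OE at 1 month over 20 days, and 4782 to between 2986 and 5856 for MBP3-OE at 4 months over 1 month. With the 20-day and 1-month libraries only, an alternative chosen after seeing the data, the log2 fold change was 1.56 for g4107 (adjusted p = 0.0524) and 1.73 for g4109 (adjusted p = 0.0491) by edgeR. An exact permutation test of log2 FPKM within age, also added later, gave 1.03 for g4107 (p = 0.0625) and 1.18 for g4109 (p = 0.0469).

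The rise in MBP3-OE from 1 month to 4 months was not called with total counts (0.85 and 0.87), nor with limma on log2(FPKM + 1) (0.77 and 0.76) or log2(FPKM + 0.1) (0.79 and 0.78), and the cause was not tested. Without 1 library it ran from 0.73 to 1.37 for g4107 and from 0.72 to 1.42 for g4109. Without 1 MBP3-OE library, WT at 4 months over 1 month ran from 2.12 to 2.13 for g4107 and from 2.24 to 2.25 for g4109. These fits keep both WT libraries, so the narrow range does not show how far this difference depends on either of them. Over the same fits, MBP3-OE over WT at 4 months ran from -0.40 to 0.23 for g4107 and from -0.34 to 0.37 for g4109. The change of 4 months over 20 days in MBP3-OE ran from -0.0381 to 0.62 and from -0.0775 to 0.63. Calls of MADS-box genes averaged over ages were 10 with DESeq2, 2 and 1 with limma, and 0 to 3 without 1 library. DESeq2 called 1 other MBP gene (beside 3.53% of all genes). At 4 months it called 3 neighbours (beside 3.87% of all genes), where edgeR without 1 library gave 0 to 1.

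The total-count scaling split the genes called for 4 months over 1 month in MBP3-OE into 1174 higher and 4048 lower, beside 2098 higher and 2684 lower with TMM. For 4 months over 20 days in MBP3-OE it gave 3626 higher and 6101 lower, beside 4900 and 4983, and for WT at 4 months over 1 month 496 and 660, beside 840 and 596.

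Whether the numbers 2, 3 and 8 pair the samples is not stated. Over all genes, deviations of same-numbered libraries correlated between -0.091 and 0.130, with 1 of 9 pairs over 0.1. Those of differently numbered libraries correlated between -0.125 and 0.181. Each deviation is from a mean of 3 libraries, so these correlations cannot settle the pairing. With the replicate number as a block in the MBP3-OE libraries alone, the log2 change of 4 months over 1 month was 1.14 for both genes (edgeR adjusted p = 0.0412 and 0.0413), that of 1 month over 20 days -0.79 and -0.81, and that of 4 months over 20 days 0.35 and 0.33, with every call as in the fit without it.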

Other observations

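Among the neighbours of the pair, the 4 tested genes described as patatin-like protein 2, which belong to a family of lipid acyl hydrolases that includes the potato tuber storage protein, spanned wide ranges at 4 months. They are given here after their values were seen. The gene g4095 had 6.87, 65.2 and 158 FPKM in MBP3-OE at 4 months, against 1353 FPKM in WT, and g4098 had 40.4, 701 and 924 FPKM in MBP3-OE, against 2208 FPKM in WT. The WT library was above all 3 MBP3-OE libraries for both at this age, and neither was called (log2 fold change -4.07, SE 1.14, edgeR adjusted p = 0.193, and -1.95, SE 1.08, edgeR adjusted p = 0.491). At 1 month the order was the other way round: g4095 had 78.9, 107 and 30.5 FPKM in MBP3-OE, against 7.19 FPKM in WT, and g4098 had 247, 252 and 131 FPKM in MBP3-OE, against 37.7 FPKM in WT. Neither was called there (log2 fold change 3.33, SE 1.56, edgeR adjusted p = 0.508, and 2.48, SE 1.37, edgeR adjusted p = 0.573). At 4 months MBP3-OE library 2, the lowest of the 3 for these genes, was also the lowest for g4107 and g4109, at 55.8 and 27.9 FPKM. At 1 month this did not hold: library 8 was the lowest for g4095 and g4098. Library 2 was the lowest there for g4107 and g4109, at 29.7 and 16.6 FPKM.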
